A study of Mus musculus with 12 samples.

Results

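The genes described here are 33 genes of the endoplasmic reticulum (ER) that fold, modify or dispose of newly made secretory and membrane proteins, among 41457 genes counted in splenic regulatory T cells (Treg). They were chosen by gene symbol from knowledge of the unfolded protein response, with earlier results of these data known. All 33 were found in the gene tables and had enough reads to be tested in every comparison. RFP+CD4+ Treg were sorted from spleen and cultured overnight in 5 U/mL IL-2, either alone (unstimulated) or together with antibodies to CD3 (1 μg/mL) and CD28 (2 μg/mL) that mimic antigen (stimulated). Poly(A) RNA was then sequenced in 59-base single reads. CD18Foxp3 Treg came from CD18fl/fl mice carrying Foxp3Cre, in which exon 3 of Itgb2 is removed in cells that express Foxp3. Itgb2 encodes CD18, the common chain of the β2-integrins. CD18wt Treg came from CD18wt/wt Foxp3Cre littermates, so both genotypes carried the Cre and the red fluorescent reporter by which the cells were sorted. Mice were matched for age and sex; their ages are not given in the sources used here. There were 3 libraries in each of 4 groups, and the labels number them without naming the animal, so the p-values below measure the spread between libraries.

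Proteins destined for the cell surface or for secretion enter the ER through the Sec61 channel, lose their signal peptide, receive N-linked glycans and are folded by chaperones and protein disulfide isomerases. When unfolded proteins accumulate, the sensors IRE1 (Ern1), ATF6 (Atf6) and PERK (Eif2ak3) raise the folding capacity, IRE1 by splicing the messenger of the transcription factor XBP1 and ATF6 by releasing its own transcription factor domain. Activated lymphocytes make more membrane and secreted protein, and Xbp1 is known best in the lymphocyte lineage for the secretory expansion of plasma cells. The counts are per gene, so the spliced and unspliced forms of Xbp1 were not told apart.

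Exon reads per library ranged from 10665174 to 19005482. The 33 ER genes took between 0.596% and 0.664% of them in the 6 unstimulated libraries and between 0.830% and 0.970% in the 6 stimulated libraries. Itgb2 followed the labels, at 465, 431 and 387 TPM (exon reads per exon length, scaled to the same sum in every library) in unstimulated CD18wt Treg and 229, 257 and 234 TPM in unstimulated CD18Foxp3 Treg. In stimulated Treg it was at 331, 329 and 329.6 TPM in CD18wt and at 131, 202 and 183 TPM in CD18Foxp3 libraries; reads of exons that are not deleted still count. All 7 Treg markers were present in every library, and the 7 plasma cell markers summed to between 1.40 and 6.19 TPM, with 3 to 5 of the 7 at 0. Ighm and Igkc were at 0 exon reads in every library. Where Ighm had reads, all were intron reads, so its 0 cannot speak for the absence of plasma cells. The 6 B cell markers summed to between 27.3 and 39.2 TPM in unstimulated libraries and to between 9.48 and 21.5 TPM in stimulated ones. The 7 myeloid markers summed to between 5.87 and 20.6 TPM over the 12 libraries and the 2 CD8 T cell markers to between 12.6 and 30.4 TPM. The 5 erythroid markers summed to 11.4, 58.1 and 5.53 TPM in unstimulated CD18Foxp3 libraries and to 10.2, 9.40 and 1.83 TPM in unstimulated CD18wt libraries. In stimulated libraries they lay between 0.234 and 4.04 TPM. The part of these cells in the results was not tested, and in bulk RNA fewer cells of a type and less RNA per cell cannot be told apart. The library of unstimulated CD18wt replicate 3 stood apart. It had the fewest reads and the lowest share of intron reads (3.32%, where the others had 3.66% to 5.99%). Replicate 1 of stimulated CD18Foxp3 Treg also differed most from the others of its group. Counts of ER genes are therefore given with and without these libraries.

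Levels can be compared between genes only per length, and TPM were used for this. In unstimulated CD18wt Treg the levels ran from 4.10 ± 0.39 TPM (SD, n = 3) for Ern1 to 615 ± 52.7 TPM for Calr, which encodes the lectin chaperone calreticulin. Calr and the disulfide isomerase Pdia3 (610.5 ± 64.6 TPM), which work together on glycoproteins, did not differ beyond their spread. Hspa5, which encodes BiP, the Hsp70 of the ER, followed at 431 ± 20.5 TPM. Next came Hsp90b1 (277 ± 46.0 TPM), the Hsp90 of the ER known as GRP94, and the disulfide isomerase P4hb (275 ± 28.3 TPM), again within each other's spread. At the other end stood both sensors, since Atf6 was at 6.56 ± 1.57 TPM. The transcription factor Xbp1, at 60.0 ± 2.62 TPM, held place 24 of 33. In unstimulated CD18Foxp3 Treg, too, Calr stood first (667 ± 43.1 TPM) and Ern1 last (3.41 ± 0.70 TPM). After stimulation of CD18wt Treg, Sdf2l1 moved from place 28 (51.2 ± 6.11 TPM) to place 10 (256 ± 49.2 TPM) and Rpn1 from place 25 (56.5 ± 16.4 TPM) to place 11 (202 ± 8.10 TPM). Dnajb9 moved the other way, from place 23 (60.2 ± 31.3 TPM) to place 31 (25.6 ± 9.55 TPM).

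**Figure D1:**
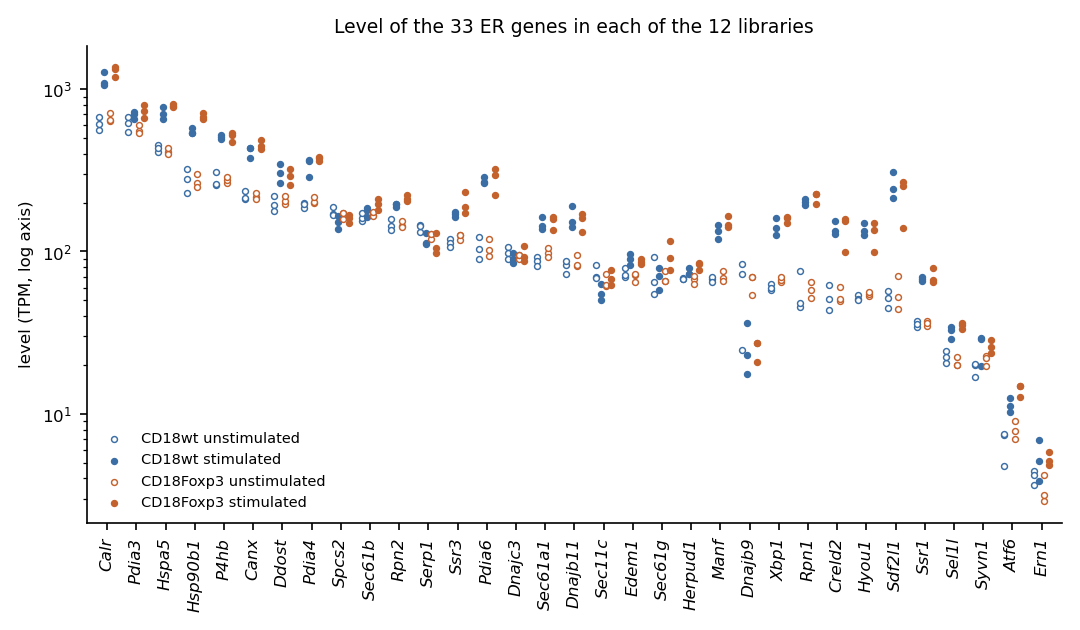
Level of each of the 33 ER genes in TPM (log axis) in all 12 libraries, ordered by the mean of unstimulated CD18wt Treg; open circles are unstimulated and filled circles stimulated libraries, blue CD18wt and orange CD18Foxp3. Calr stands at 615 TPM and Ern1 at 4.10 TPM on average in unstimulated CD18wt Treg, and 1 unstimulated CD18wt library of Dnajb9 lies at 24.7 TPM, among the stimulated ones.

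Genes of the unfolded protein response are known for a promoter element that binds NF-Y and ATF6 or XBP1, the ER stress response element, whose letters are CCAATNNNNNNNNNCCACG. It was searched on both strands of the RefSeq promoter windows (GRCm38.p6, 250 bases before to 50 after each start), in which 28 of the 33 ER genes were matched by symbol. The element was found in 8 of these 28 (28.6%), against 0.137% of the 27025 genes with a window. These 8 are shown because they share letters that the choice by symbol did not read. The element is known from genes of this response, however, so its share among the 28 is not independent of the choice. Each is written 5′ to 3′ in the direction of the element, with both conserved ends in capitals and the spacer in lower case:
Hspa5: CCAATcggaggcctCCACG
Hsp90b1, far copy: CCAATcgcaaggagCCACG
Hsp90b1, near copy: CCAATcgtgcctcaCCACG
Calr: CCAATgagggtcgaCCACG
Canx: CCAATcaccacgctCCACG
Pdia6: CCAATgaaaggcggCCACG
Dnajc3: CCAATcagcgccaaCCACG
Creld2: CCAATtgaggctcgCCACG
Syvn1: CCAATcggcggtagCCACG
The spacers were all different. The element began 65 bases before the start of Hspa5, 98 before that of Pdia6, 105 before that of Dnajc3 and 145 before that of Canx. In Creld2, in Calr and in the near copy of Hsp90b1 it lay on the opposite strand, between 107 and 162 bases before the start. Hsp90b1 was the only one of the 8 with a pair of copies, the far one 212 bases before its start.

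The related element II, with the letters ATTGGNCCACG, was present in Herpud1 (ATTGGgCCACG, 52 bases before the start) and in Dnajb11 (ATTGGcCCACG, 8 bases after it), against 0.0444% of all genes. The XBP1 core TGACGTG was found in Hspa5 alone among the 28, at 157 bases before the start, against 2.22% of all genes. A match is a description of the letters, not of binding. The stretches that hold the element are given for the 3 holders with the largest fold change on stimulation of CD18wt Treg, on the strand of the gene and with the ends of the element in capitals, which read CGTGG and ATTGG where the element lies on the opposite strand. Bases inside the gene model of the deposited tables were left out.
Creld2, chr15:88819396-88819645, plus strand: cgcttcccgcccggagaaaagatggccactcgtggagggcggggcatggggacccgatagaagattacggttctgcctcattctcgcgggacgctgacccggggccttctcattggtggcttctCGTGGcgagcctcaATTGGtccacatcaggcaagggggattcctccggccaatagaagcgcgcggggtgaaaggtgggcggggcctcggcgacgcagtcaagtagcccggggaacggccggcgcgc
Pdia6, chr12:17266339-17266544, plus strand: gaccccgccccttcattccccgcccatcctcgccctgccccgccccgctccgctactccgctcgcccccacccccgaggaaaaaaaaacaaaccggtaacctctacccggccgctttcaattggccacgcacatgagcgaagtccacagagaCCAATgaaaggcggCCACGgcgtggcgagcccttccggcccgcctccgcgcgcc
Hsp90b1, chr10:86705510-86705694, minus strand: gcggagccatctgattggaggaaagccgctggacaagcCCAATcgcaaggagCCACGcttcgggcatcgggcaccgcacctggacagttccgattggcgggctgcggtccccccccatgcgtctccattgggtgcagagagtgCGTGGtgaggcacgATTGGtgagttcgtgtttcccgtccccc

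Stimulation of CD18wt Treg raised 7 of the 33 ER genes and lowered 3. The 7 were Sdf2l1, Rpn1, Creld2, Hyou1, Pdia6, Xbp1 and Manf, and the 3 were Sec11c, Serp1 and Spcs2. In CD18Foxp3 Treg the same 7 genes rose, together with Hsp90b1, Canx, Ssr1 and Calr, and Dnajb9 alone fell. A gene was counted as risen or fallen where it changed 1.5-fold or more with an adjusted p no larger than 0.01 (edgeR quasi-likelihood test, adjusted over all genes tested). The share of the 33 that rose in CD18wt Treg (21.2%) was near that of all genes tested (18.7%), and the share that fell was 9.09%, against 14.9% of all genes. In CD18Foxp3 Treg 33.3% of the ER genes rose, against 20.9% of all genes, and 3.03% fell, against 17.6%. The median log2 fold change of the 33 was 0.32 in CD18wt and 0.39 in CD18Foxp3 Treg, where the median of all genes tested was 0.02 and 0.01. Without replicate 2 of stimulated CD18wt Treg, the CD18wt median of the 33 was 0.16. Altogether 18 of the 33 passed the threshold in neither genotype. Without replicate 3 of unstimulated CD18wt Treg, 10 ER genes rose and 2 fell in CD18wt Treg, against 2182 and 1661 of 12345 genes tested. Without replicate 1 of stimulated CD18Foxp3 Treg, 10 rose and 2 fell in CD18Foxp3 Treg, against 2571 and 2318 of 12318 genes tested.

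**Figure D2:**
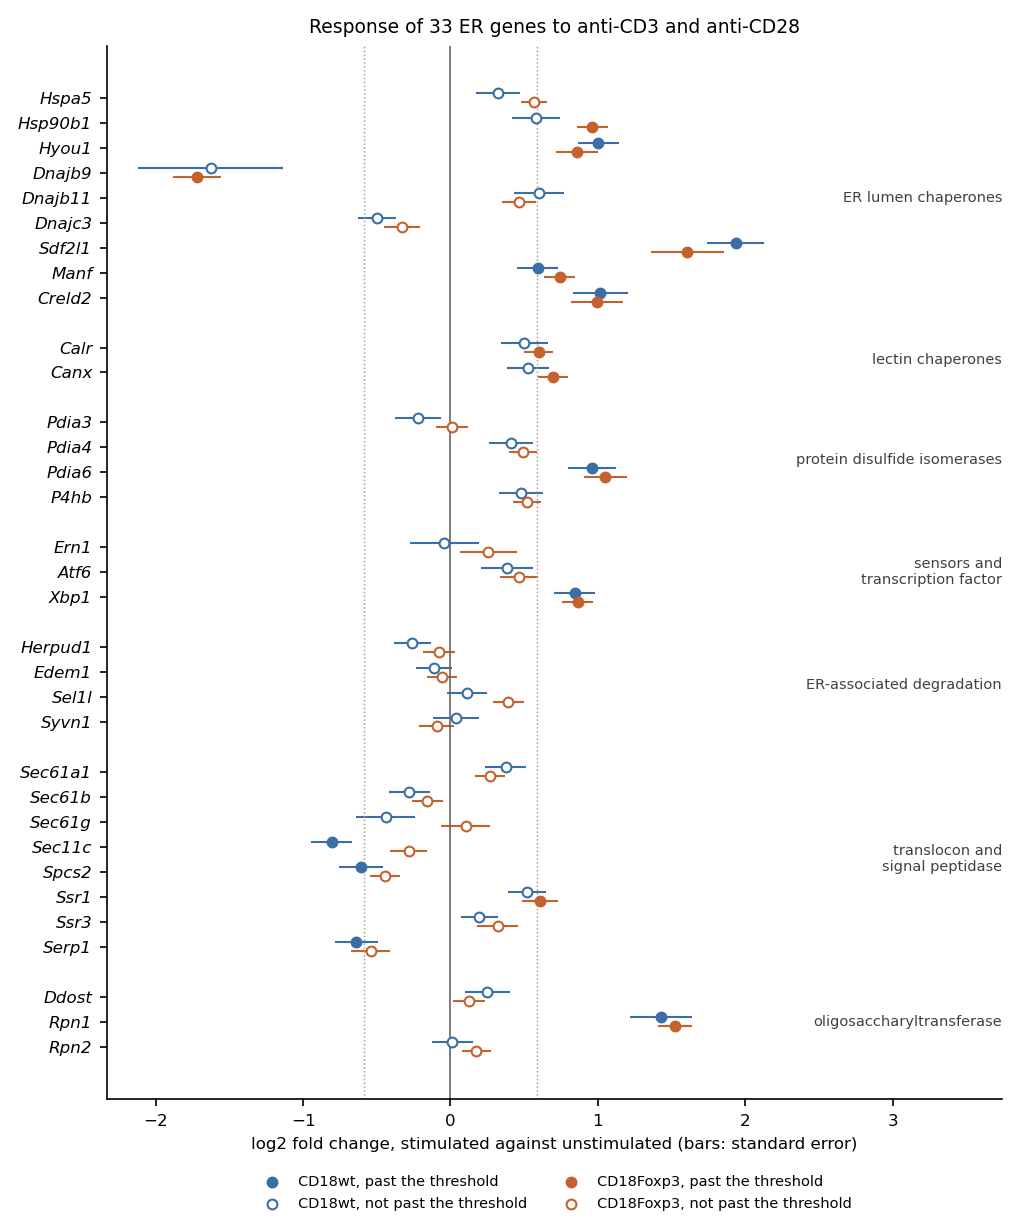
Log2 fold change of the 33 ER genes, stimulated against unstimulated, grouped by role, in CD18wt (blue) and CD18Foxp3 Treg (orange). Bars are the standard error, filled circles passed the threshold of a 1.5-fold change (dotted lines) and an adjusted p of 0.01; Sdf2l1 and Rpn1 lie farthest to the right, Dnajb9 farthest to the left.

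The values of single libraries are given here in normalised CPM (exon reads scaled to a common library size by the TMM method), the scale on which the fold changes were computed. Counts by role, here and below, stand against all genes tested, of which 18.7% rose and 14.9% fell in CD18wt Treg. In CD18Foxp3 Treg these shares were 20.9% and 17.6%, and a role held only 2 to 9 genes. Among the 9 chaperones of the ER lumen, 4 rose in CD18wt Treg (44.4%) and 5 in CD18Foxp3 Treg (55.6%). Sdf2l1, whose product sits in a complex of BiP and its cochaperones, had the largest rise of the 33 in both genotypes. It was at 24.9, 19.3 and 24.3 normalised CPM in unstimulated CD18wt libraries and at 79.5, 114 and 68.7 in stimulated ones. In CD18Foxp3 Treg it went from 23.1, 19.7 and 30.2 to 47.8, 88.5 and 86.7. No stimulated library overlapped an unstimulated one, and replicate 1 of stimulated CD18Foxp3 Treg was the lowest of the stimulated libraries. The rise was 3.82-fold in CD18wt (log2 fold change 1.94, standard error (SE) 0.19, adjusted p = 5.45e-06) and 3.05-fold in CD18Foxp3 Treg (1.61, 0.25, adjusted p = 0.000491).

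Creld2 and Hyou1 responded about equally in both genotypes. Creld2, a secreted ER stress protein, was at 27.5, 23.0 and 35.9 normalised CPM in unstimulated and at 54.0, 69.8 and 50.6 in stimulated CD18wt libraries. In CD18Foxp3 Treg it was at 27.1, 28.0 and 31.6 without and at 42.2, 63.3 and 67.2 with stimulation. These were log2 fold changes of 1.02 (SE 0.19, adjusted p = 0.000582) and 0.99 (SE 0.18, adjusted p = 0.00113). Hyou1, an exchange factor for BiP, was at 154, 144 and 154 in unstimulated and at 269.5, 361 and 278 in stimulated CD18wt libraries. Its CD18Foxp3 libraries were at 155, 159 and 156 without stimulation and at 223, 324 and 304 with it. Its log2 fold changes were 1.00 (SE 0.14, adjusted p = 7.26e-05) and 0.86 (SE 0.14, adjusted p = 0.000736), and the stimulated libraries of both genes lay above all unstimulated ones.

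Manf, a small ER-resident protein that binds BiP, rose by 0.59 in CD18wt (adjusted p = 0.00351) and by 0.74 in CD18Foxp3 Treg (adjusted p = 0.000337) on the log2 scale. Its CD18wt call held in 2 of 6 fits that left out 1 library, while its CD18Foxp3 call held in all 6, and 87.7% of its reads were placed uniquely. The CD18wt call was also lost with uniquely placed reads, with DESeq2 and with upper-quartile normalization, so the rise of Manf in CD18wt Treg is less certain than that of the other 6. Hsp90b1 was at 444, 359 and 549.9 normalised CPM in unstimulated and at 639, 719.6 and 667 in stimulated CD18wt libraries, a log2 fold change of 0.58 (SE 0.16, adjusted p = 0.00953) that lay just under the fold threshold. In CD18Foxp3 Treg it went from 428, 405 and 464 to 896, 788 and 840.0, a rise of 0.96 (SE 0.11, adjusted p = 7.05e-05). Without replicate 3 of unstimulated CD18wt Treg, Hsp90b1 passed in CD18wt Treg too, with a log2 fold change of 0.75. Hspa5 did not reach the fold threshold in either genotype. It was at 750.5, 675 and 778 in unstimulated and at 821, 1084 and 857 in stimulated CD18wt libraries, with log2 fold changes of 0.32 (adjusted p = 0.0914) in CD18wt and 0.57 (adjusted p = 0.000568) in CD18Foxp3 Treg. Dnajb11, a cochaperone of BiP, had log2 fold changes of 0.60 (adjusted p = 0.0106) and 0.47 (adjusted p = 0.00767).

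Dnajb9 and Dnajc3, which encode further J-domain cochaperones of BiP, had negative values. Dnajb9 (ERdj4), a repressor of IRE1, was at 70.6, 71.4 and 52.6 normalised CPM in unstimulated CD18Foxp3 libraries and at 21.5, 20.7 and 16.5 in stimulated ones. It fell by 1.72 on the log2 scale (SE 0.17, adjusted p = 3.16e-05). In CD18wt Treg it was at 84.0, 71.6 and 26.8 without stimulation and at 27.3, 19.4 and 12.9 with it, so replicate 3 of the unstimulated libraries overlapped the stimulated ones. The log2 fold change there was -1.63 (SE 0.49, adjusted p = 0.0379), which did not pass. Without that library it was -1.98 (SE 0.26, adjusted p = 0.000257). Dnajc3 had log2 fold changes of -0.50 (adjusted p = 0.00565) and -0.33 (adjusted p = 0.0431), neither of them past the threshold.

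Of the lectin chaperones, which hold newly glycosylated proteins, both rose in CD18Foxp3 Treg and neither passed in CD18wt Treg. Calr had log2 fold changes of 0.50 (adjusted p = 0.0183) in CD18wt and 0.60 (adjusted p = 0.000634) in CD18Foxp3 Treg, and Canx (calnexin) of 0.52 (adjusted p = 0.00779) and 0.70 (adjusted p = 0.000411). The CD18Foxp3 call of Calr held in 3 of 6 fits that left out 1 library and was lost without replicate 1 or 2 of the unstimulated or replicate 3 of the stimulated libraries; that of Canx held in all 6. Among the 4 disulfide isomerases, which make and rearrange disulfide bonds, Pdia6 rose in both genotypes. It was at 153, 132 and 196 normalised CPM in unstimulated and at 292, 358 and 289 in stimulated CD18wt libraries. In CD18Foxp3 Treg it was at 140.3, 154 and 171 without and at 258, 333 and 373 with stimulation. The groups did not overlap, and the log2 fold changes were 0.96 (SE 0.16, adjusted p = 0.000301) and 1.05 (SE 0.15, adjusted p = 0.000291). P4hb had values of 0.48 and 0.52 and Pdia4 of 0.41 and 0.49, all short of the threshold. Pdia3, second in level before stimulation, had values of -0.22 (adjusted p = 0.262) and 0.01 (adjusted p = 0.954).

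Of the sensors and their transcription factor, Xbp1 rose and neither sensor passed. Xbp1 was at 80.1, 72.7 and 82.4 normalised CPM in unstimulated CD18wt Treg and at 155, 149.7 and 118 in stimulated CD18wt Treg. In CD18Foxp3 Treg it was at 84.9, 87.7 and 87.3 before and at 165, 145 and 161 after stimulation. All stimulated libraries lay above all unstimulated ones. This was a 1.79-fold rise in CD18wt (log2 fold change 0.84, SE 0.14, adjusted p = 0.000259) and a 1.82-fold rise in CD18Foxp3 Treg (0.86, 0.10, adjusted p = 0.000119), and both calls held in every fit that left out 1 library. Ern1, which encodes IRE1α, was at 14.3, 11.7 and 14.6 in unstimulated and at 16.8, 10.5 and 12.2 in stimulated CD18wt libraries, which overlapped. Its CD18Foxp3 libraries, at 13.7, 9.51 and 9.86 before and at 12.3, 14.3 and 12.9 after stimulation, overlapped too. The log2 fold changes were -0.04 (adjusted p = 0.898) and 0.26 (adjusted p = 0.280). Atf6 was at 27.0, 26.9 and 18.6 in unstimulated and at 30.4, 31.5 and 33.3 in stimulated CD18wt Treg, and at 29.1, 25.9 and 32.0 against 36.7, 41.1 and 42.3 in CD18Foxp3 Treg. Its stimulated libraries lay above the unstimulated ones in each genotype, with log2 fold changes of 0.39 (adjusted p = 0.0884) and 0.46 (adjusted p = 0.0135) that did not pass.

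**Figure D3:**
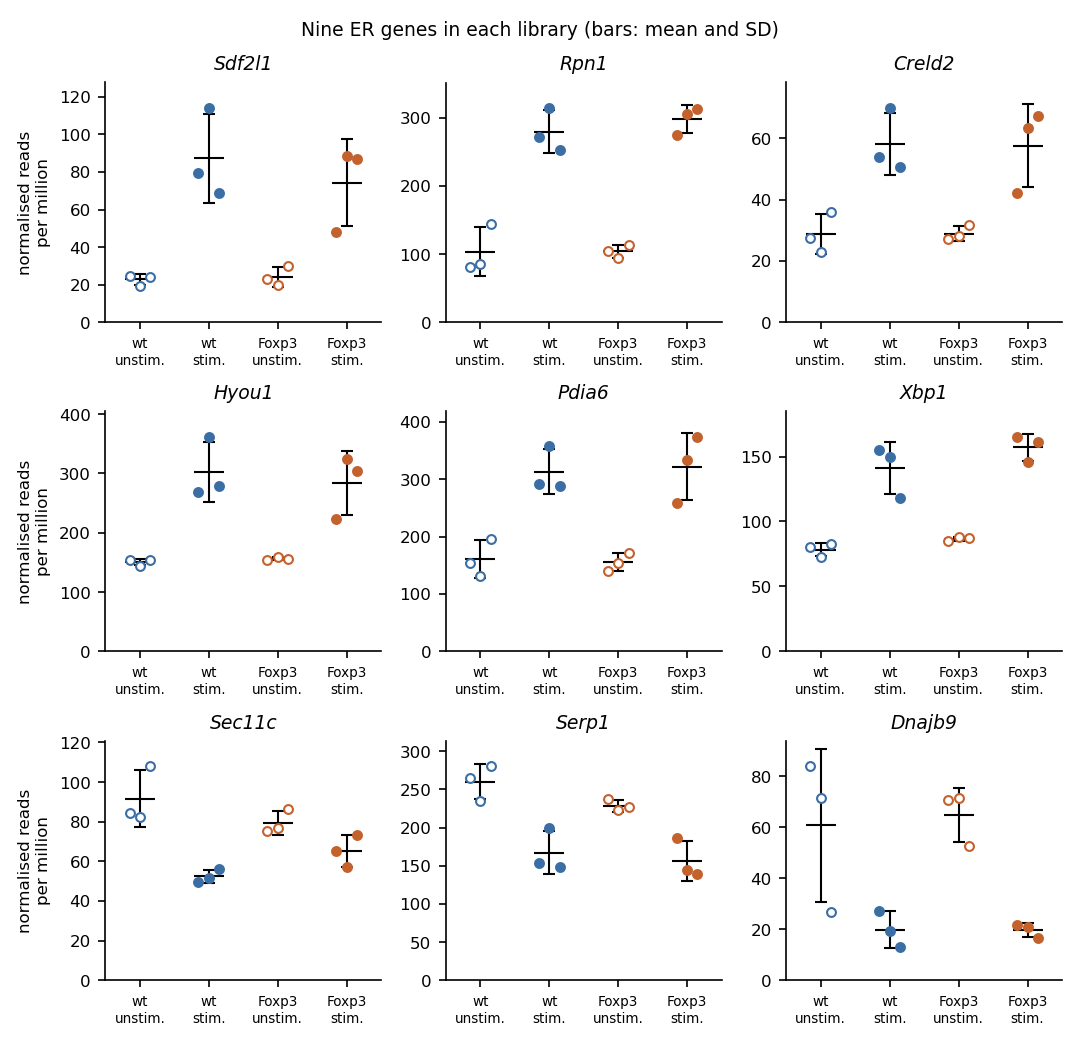
Normalised CPM (y axis, from 0) of 9 ER genes in the 3 libraries of each group, with the mean and SD as bars; wt is CD18wt, Foxp3 is CD18Foxp3, open circles are unstimulated and filled circles stimulated. In Dnajb9, replicate 3 of unstimulated CD18wt Treg (26.8) lies at the level of the stimulated libraries, while Xbp1 shows no overlap between unstimulated and stimulated libraries.

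None of the 4 genes of ER-associated degradation, by which misfolded proteins are returned to the cytosol, passed in either genotype. Herpud1 (a membrane scaffold of this machinery), Edem1 (a mannosidase-like lectin), Sel1l and Syvn1 (adaptor and ubiquitin ligase of 1 complex) had log2 fold changes between -0.26 and 0.11 in CD18wt Treg. In CD18Foxp3 Treg they lay between -0.09 and 0.39, with Sel1l at 0.39 (adjusted p = 0.0107). The smallest adjusted p of the 4 was 0.105 in CD18wt Treg.

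The 8 genes of the translocon and signal peptidase gave all 3 falls of CD18wt Treg (37.5% of the 8, against 14.9% of all genes tested). Sec11c, a catalytic subunit of the signal peptidase, was at 84.5, 82.5 and 108 normalised CPM in unstimulated and at 49.7, 51.6 and 55.9 in stimulated CD18wt libraries. It fell by 0.81 on the log2 scale (SE 0.14, adjusted p = 0.000403). In CD18Foxp3 Treg it was at 75.3, 76.9 and 86.4 before and at 65.2, 57.3 and 73.1 after stimulation, a log2 fold change of -0.28 (adjusted p = 0.0778). The groups did not overlap in either genotype on this scale. Serp1, which stabilises proteins in transit, was at 266, 235 and 280.5 in unstimulated and at 154, 199 and 149 in stimulated CD18wt libraries, and fell by 0.64 (SE 0.15, adjusted p = 0.00264). Its CD18Foxp3 libraries went from 237, 222 and 226 to 186, 144 and 139, a log2 fold change of -0.54 (adjusted p = 0.00741) that lay just short of the fold threshold. Spcs2, a further subunit of the signal peptidase, was at 284, 277 and 335 in unstimulated and at 190.1, 233 and 168 in stimulated CD18wt libraries and fell by 0.60 (adjusted p = 0.00451). It had a value of -0.44 (adjusted p = 0.00485) in CD18Foxp3 Treg. Leaving out 1 library kept the call of Sec11c in 6 of 6 fits, of Serp1 in 2 (lost without replicate 1 or 3 of either group) and of Spcs2 in 1 (kept only without replicate 2 of stimulated CD18wt Treg). Both calls were lost without replicate 3 of unstimulated CD18wt Treg.

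In the same group, Ssr1, the α subunit of the translocon-associated complex, rose in CD18Foxp3 Treg (log2 fold change 0.61, adjusted p = 0.00244) and had a value of 0.52 (adjusted p = 0.00437) in CD18wt Treg. That call held in 2 of 6 fits that left out 1 library, those without replicate 2 or 3 of stimulated CD18Foxp3 Treg. The channel subunits Sec61a1, Sec61b and Sec61g and Ssr3 did not pass, with values between -0.44 and 0.37 in CD18wt and between -0.16 and 0.32 in CD18Foxp3 Treg. Of the reads of Sec61a1 and Sec61b, 85.7% and 71.5% were placed uniquely, so their counts are less certain.

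Of the 3 subunits of the oligosaccharyltransferase, the enzyme that attaches N-linked glycans, only Rpn1 passed. Rpn1 (ribophorin I) was at 81.0, 85.0 and 145 normalised CPM in unstimulated and at 272, 314 and 252 in stimulated CD18wt libraries. Its CD18Foxp3 libraries went from 105, 93.8 and 113 to 274, 305 and 313. The lowest stimulated library lay far above the highest unstimulated one, with a 2.70-fold rise in CD18wt (log2 fold change 1.43, SE 0.21, adjusted p = 0.000180) and a 2.87-fold rise in CD18Foxp3 Treg (1.52, 0.12, adjusted p = 8.79e-06). Replicate 3 was the highest unstimulated library in both genotypes. Ddost had values of 0.25 and 0.13, and Rpn2 of 0.01 and 0.17. The calls of Sdf2l1, Rpn1, Creld2, Hyou1, Pdia6 and Xbp1 held in all fits that left out 1 library, in both genotypes.

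The scale on which the genes were compared changed the count of ER genes that rose and fell. On log2(TPM + 1), tested with limma, the median of all genes tested shifted upward by 0.36 in CD18wt and 0.31 in CD18Foxp3 Treg on stimulation, where after TMM normalization it was 0.02 and 0.01. The median of the 33 on the TPM scale was 0.71 and 0.73. On this scale 18 ER genes rose and 0 fell in CD18wt Treg, against 30.1% and 7.19% of all genes, and 19 rose and 1 fell in CD18Foxp3 Treg, against 31.5% and 9.99% of all genes. With each library centred on its median gene, an alternative chosen after seeing the data, 6 ER genes rose and 3 fell in CD18wt Treg. In CD18Foxp3 Treg 9 rose and 1 fell. On these centred values 1897 of all 11930 genes tested rose and 2176 fell in CD18wt Treg. In CD18Foxp3 Treg 2145 of 12019 rose and 2489 fell. None of the 3 falls of CD18wt Treg passed on log2(TPM + 1), where Sec11c had a value of -0.39 (adjusted p = 0.0291), Serp1 of -0.25 and Spcs2 of -0.21. With library size alone the fall of Sec11c passed and those of Serp1 and Spcs2 did not. In TPM, Herpud1 and Edem1 were higher in every stimulated than in every unstimulated CD18wt library, with negative log2 fold changes after TMM normalization.

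No ER gene passed the threshold between the genotypes. In unstimulated Treg the log2 fold changes of CD18Foxp3 against CD18wt lay between -0.28 (Ern1) and 0.25 (Atf6). Among all genes tested, 0.0507% were higher and 0.0845% were lower in CD18Foxp3 Treg. The smallest unadjusted p of the 33 was that of Serp1. It was at 237, 222 and 226 normalised CPM in CD18Foxp3 and at 266, 235 and 280.5 in CD18wt libraries, which overlapped, a log2 fold change of -0.18 (SE 0.08, unadjusted p = 0.0497, adjusted p = 0.520). For 31 of the 33 the interval of 2 standard errors around the log2 fold change lay inside a 1.5-fold difference in either direction. The exceptions were Ern1 and Dnajb9, whose replicate 3 stood apart. By an adjusted p under 0.05, DESeq2, a likelihood ratio test and the other alternatives, too, 0 ER genes passed. In the quasi-likelihood test 1 of the 33 had an unadjusted p under 0.05, against 1134 of all 11829 genes tested.

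**Figure D4:**
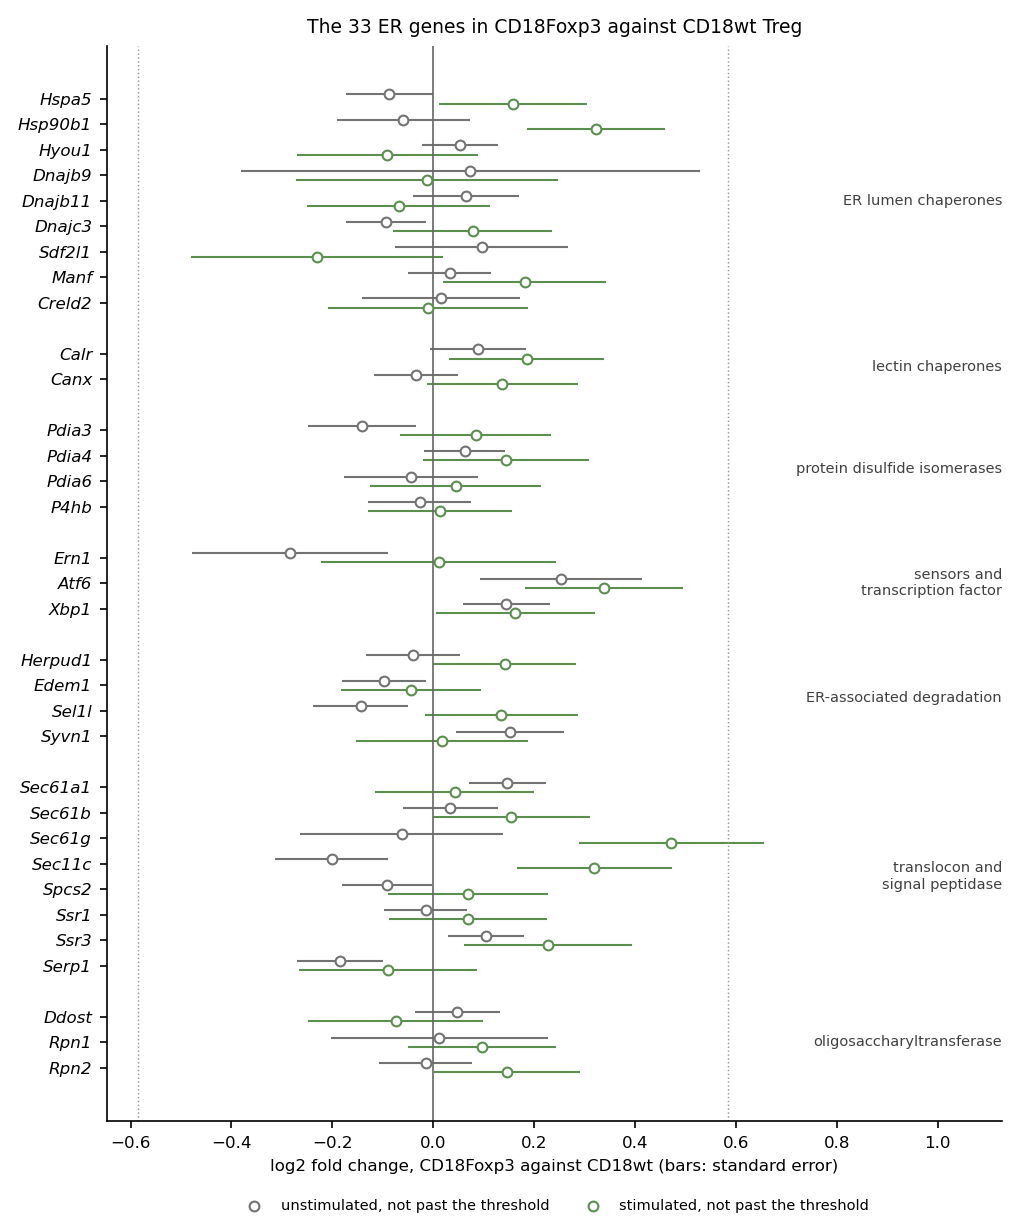
Log2 fold change of the 33 ER genes in CD18Foxp3 against CD18wt Treg, unstimulated (grey) and stimulated (green), with the standard error as bars; dotted lines mark a 1.5-fold difference and open circles did not pass the threshold. Every point estimate lies between -0.28 and 0.47, inside the dotted lines.

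In stimulated Treg the values lay between -0.23 (Sdf2l1) and 0.47 (Sec61g). Their median was 0.08, with 25 of the 33 positive, but it was 0.03 with 19 positive without replicate 3 of CD18wt Treg and 0.18 with 29 positive without replicate 2 of CD18wt Treg. Of all 11930 genes tested with every library, 5901 had positive values, and their median was -0.003. No gene at all passed the quasi-likelihood test here (0% higher and 0% lower), and DESeq2 called 22. Of the 11930 genes, 583 had an unadjusted p under 0.05, a share below the 0.05 that arises on average where no gene differs. Of the ER genes, 2 had an unadjusted p under 0.05. Sec61g, the γ subunit of the channel, was at 51.7, 47.5 and 56.6 normalised CPM in CD18wt and at 88.7, 56.7 and 69.7 in CD18Foxp3 libraries (log2 fold change 0.47, SE 0.18, unadjusted p = 0.0246, adjusted p = 0.939). Its CD18Foxp3 libraries lay above the others by a narrow margin. Hsp90b1 was at 639, 719.6 and 667 in CD18wt and at 896, 788 and 840.0 in CD18Foxp3 libraries, which did not overlap, with a genotype log2 fold change of 0.32 (SE 0.14, unadjusted p = 0.0360, adjusted p = 0.970). The interval of 2 standard errors lay inside a 1.5-fold difference for 28 of the 33. It reached beyond for Hsp90b1, Sdf2l1, Atf6, Sec61g and Sec11c.

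The response to stimulation was compared between the genotypes by the interaction of genotype and stimulation over all 12 libraries. No ER gene and no other gene passed (0% in either direction). Of 12636 genes tested, 485 had an unadjusted p under 0.05, again a share below 0.05, and DESeq2 called 1. The interaction values of the 33 lay between -0.33 (Sdf2l1) and 0.54 (Sec61g). Sec11c had the smallest unadjusted p, with an interaction of 0.52 (SE 0.19, unadjusted p = 0.0149, adjusted p = 0.987), with a log2 fold change of -0.81 in CD18wt and of -0.28 in CD18Foxp3 Treg. For Hsp90b1, Canx, Calr and Ssr1, which passed in CD18Foxp3 Treg and not in CD18wt Treg, the interaction was 0.38, 0.17, 0.09 and 0.08 (adjusted p = 0.987 for each), so that a difference between the genotypes was not shown. The interval of 2 standard errors lay inside a 1.5-fold difference for 23 of the 33. Hspa5, Hsp90b1, Dnajb9, Sdf2l1, Pdia3, Ern1, Sel1l, Sec61g, Sec11c and Rpn1 were the other 10, whose intervals reached beyond it. The comparisons between genotypes and those of stimulation share libraries and are not independent of each other.

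The promoter element and the response were set side by side. Of the 8 ER genes whose window held the ER stress response element, 2 rose and 0 fell in CD18wt Treg (Creld2 and Pdia6), and 5 rose and 0 fell in CD18Foxp3 Treg (with Hsp90b1, Calr and Canx), where 18.7% and 20.9% of all genes tested rose. Their median log2 fold change was 0.51 and 0.65. All of these 8 but Syvn1 belong to the chaperones or disulfide isomerases. No translocon, signal peptidase or oligosaccharyltransferase gene with a window held the element. The part of role in these medians was not tested apart from the element. Of the 20 with a window but without the element, 3 rose and 2 fell in CD18wt Treg and 4 rose and 1 fell in CD18Foxp3 Treg, with medians of 0.06 and 0.22. The 5 ER genes with no window had 2 rises in each genotype, 1 fall in CD18wt Treg and medians of 0.385 and 0.465. Sdf2l1, Rpn1 and Xbp1, with some of the largest rises, were among these 20. Another 29 genes of the genome that are no ER genes of this group held the element in their window; 8 of them had enough reads to be tested. Of these 8, Ero1lb (Ero1b in RefSeq, an oxidase that recharges disulfide isomerases) fell in both genotypes, Pan2 and Spats2l fell in CD18Foxp3 Treg, and no other passed.

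Other genes of the pathway, in 8 further lists, gave the setting. Of 89 such genes tested in CD18wt Treg 16 rose and 4 fell, and of 88 tested in CD18Foxp3 Treg 20 rose and 6 fell, with medians of 0.12 and 0.22. The rises were 18% and 22.7% of the genes tested, near the 18.7% and 20.9% of all genes, and the falls were 4.49% and 6.82%, against 14.9% and 17.6%. The counts of the single lists stand against the same shares of all genes. Of the 6 genes of the PERK arm tested, Eif2s1 (eIF2α, the factor that PERK phosphorylates) and Atf4 rose in both genotypes, Eif2s1 by 1.36 in CD18wt and by 1.40 in CD18Foxp3 Treg. Ppp1r15a, which encodes the GADD34 subunit that reverses this phosphorylation, was at 353, 331 and 289.5 TPM in unstimulated and at 22.5, 29.6 and 28.5 TPM in stimulated CD18Foxp3 libraries and fell by 3.96 on the log2 scale (SE 0.15, adjusted p = 6.02e-07). In CD18wt Treg it was at 351, 337 and 24.8 TPM without and at 33.04, 25.7 and 39.9 TPM with stimulation. As for Dnajb9, replicate 3 of the unstimulated libraries lay among the stimulated ones, and the value of -3.23 (standard error 1.06, adjusted p = 0.0684) became -3.76 (SE 0.16, adjusted p = 3.29e-08) without that library. What set that library apart was not tested.

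Of 20 other folding and cochaperone genes, 4 rose and 2 fell in CD18wt Treg, and 5 rose and 2 fell in CD18Foxp3 Treg. The disulfide isomerase Pdia5 had 4, 4 and 0 exon reads in unstimulated and 32, 24 and 39 in stimulated CD18wt libraries, and 0, 0 and 2 against 30, 43 and 35 in CD18Foxp3 libraries (adjusted p = 0.00285 and 0.000463), too few at the start for a fold. The oxidase gene Ero1lb fell in both genotypes, by 0.96 and 0.87. Among 14 further genes of ER-associated degradation, 2 rose and 1 fell in each genotype. The cofactor gene Nploc4 rose by 1.04 and 0.95, and the lectin gene Os9 fell by 1.06 and 1.28. Of 15 other translocation genes, 2 rose in CD18wt and 3 in CD18Foxp3 Treg. Sec61a2, the second α subunit of the channel, rose by 2.39 and 1.97 from at most 1.035 TPM in the unstimulated libraries to between 3.38 and 6.70 TPM in the stimulated ones. Sec62, which helps proteins into the channel, fell by 0.75 in CD18wt Treg and had a value of -0.53 in CD18Foxp3 Treg, short of the threshold.

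Of 9 further oligosaccharyltransferase subunits, the catalytic subunits Stt3a and Stt3b were the 2 that rose in each genotype, Stt3a by 0.68 and 0.97. In the list of glucosidases and glycan checkpoint genes, 2 rose in each genotype. Mogs, the first glucosidase to trim the glycan, rose by 1.23 in CD18wt and by 1.19 in CD18Foxp3 Treg, and the cargo receptor gene Lman1 by 1.09 and 1.23. Of 12 genes of the COPII coat, which carries folded cargo out of the ER, 2 rose in CD18wt and 3 in CD18Foxp3 Treg, with Sec24a at 0.77 and 0.91. Of 6 relatives of ATF6 and the proteases that release them, 0 passed in CD18wt Treg, while in CD18Foxp3 Treg Creb3l2 rose by 0.78 and Creb3 and Mbtps1 fell by 0.67 and 0.65. Creb3l2 had a value of 0.10 in CD18wt Treg and an interaction of 0.67 (adjusted p = 0.987).

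Folding genes of other compartments were also measured. All 6 genes of mitochondrial chaperones and proteases rose in CD18wt Treg and 5 of 6 in CD18Foxp3 Treg, with medians of 1.05 and 1.09. Hspd1 (HSP60) went from 178, 195 and 226 TPM to 1091, 1329 and 1395 TPM in CD18wt libraries, a log2 fold change of 2.27 (SE 0.17, adjusted p = 6.00e-07), and had a value of 2.69 (SE 0.12, adjusted p = 1.19e-06) in CD18Foxp3 Treg. This was more than the value of any of the 33 ER genes in the same comparison. Of 11 cytosolic heat shock proteins, 4 rose in CD18wt and 5 in CD18Foxp3 Treg. Hspa4 had the largest rise in CD18wt (1.20) and Hsp90aa1 in CD18Foxp3 Treg (2.03, against 1.09 in CD18wt Treg). Unstimulated Hsp90aa1 was at 342, 388 and 579 TPM in CD18wt libraries, highest in replicate 3, and at 277, 295 and 278 TPM in CD18Foxp3 libraries. Between the genotypes, all 11 had negative values in unstimulated Treg, as did 6033 of all 11829 genes tested. The median of the 11 was -0.34 in unstimulated and 0.01 in stimulated Treg. In both, 0 of the 11 passed. The interaction of Hsp90aa1 was 0.93 (SE 0.27, adjusted p = 0.987) and did not pass.

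**Figure D5:**
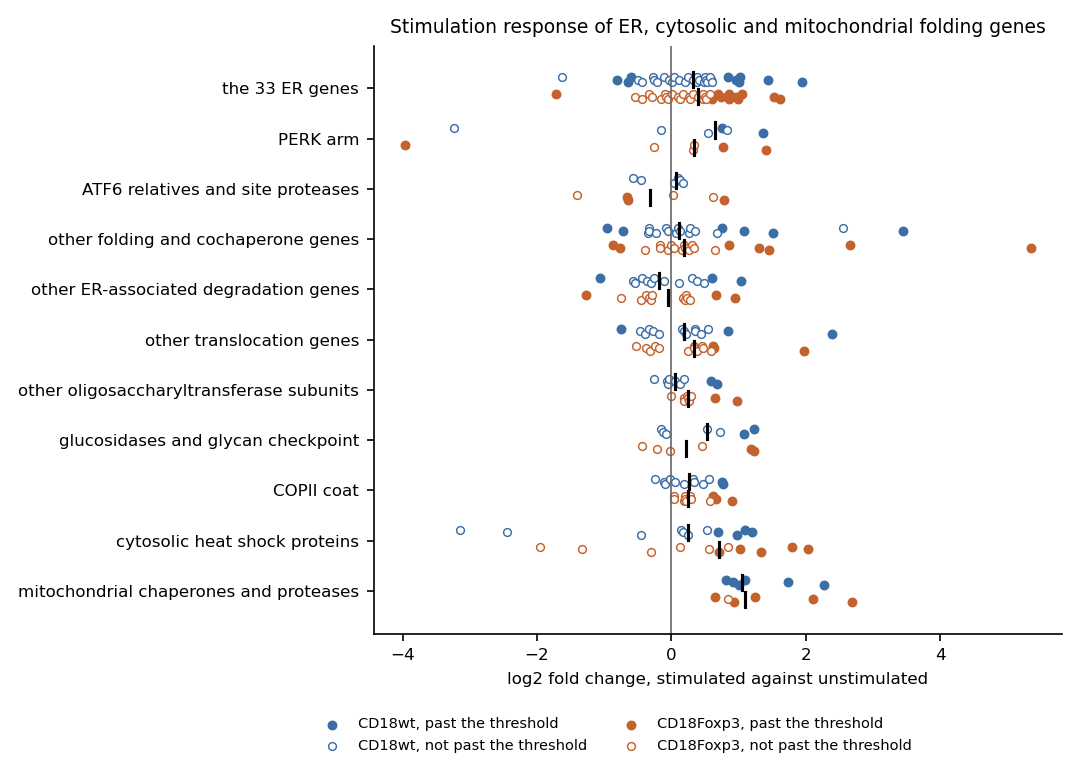
Log2 fold change on stimulation (x axis) of each tested gene of the 33 ER genes and of 10 further lists, CD18wt in blue and CD18Foxp3 in orange; filled circles passed the threshold and black ticks are the list's median. The mitochondrial list has medians of 1.05 and 1.09 and the 33 ER genes 0.32 and 0.39; the farthest point to the right is Pdia5, whose unstimulated libraries held 0 to 4 reads.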

How the data were processed

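Libraries were prepared from 10 ng total RNA with 15 PCR cycles. Read trimming, mapping to GRCm38 and counting by gene were run by the authors in CLC Genomics Workbench. They deposited counts of exon and intron reads without normalization, and TPM (exon reads per exon length, scaled to the same sum in every library). Whether counting used strand is not given in the sources used here. Manf, Pdia3, Pdia6, Syvn1, Spcs2, Serp1 and Rpn2 overlap a protein-coding gene on the opposite strand. Manf also overlaps the protein-coding gene Rbm15b on the same strand. Exon counts were tested with edgeR 4.0.16 (R 4.3.3): filterByExpr with a minimum count of 10, TMM normalization and the quasi-likelihood test, with Benjamini-Hochberg adjustment over all genes tested. A call needed a fold change of 1.5 and an adjusted p of 0.01, after the study's thresholds. The standard error was the log2 fold change divided by the root of F. The alternatives used DESeq2 1.42.0 and limma 3.58.1, among others. Standard errors and p-values cover the spread between libraries.

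The ER genes and the lists were chosen with earlier results of these data known. Library values are given for the 6 largest rises and 3 largest falls that passed in each stimulation comparison without overlap, for Xbp1, Ern1 and Atf6, and for the smallest p between genotypes; of each other list, the largest rise and fall are named. The library values of Hspa5 and Hspd1 and Atf4, Stt3b and Mbtps1 were added after their values were seen. Promoters came from RefSeq (GRCm38.p6), with older symbols matched through its synonyms. Ddit3 and Hm13 were not analysed here.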

Additional observations from a re-analysis of the deposited data

How the results depend on the processing

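With 13 alternatives for each comparison of 2 groups and 12 for the interaction, and with each library left out, 0 ER genes passed between the genotypes or in the interaction. Counts of ER genes on stimulation moved by more than 1.5 times under the scale of the values: in CD18wt Treg 14 rose and 1 fell with library size alone, and 18 rose and 0 fell with limma on log2(TPM + 1) or log2(TPM + 0.1); in CD18Foxp3 Treg 19 rose with limma on either, and 2 fell with upper-quartile normalization. Of all 11930 genes tested in CD18wt Treg, 2849 rose and 1196 fell with library size alone. On log2(TPM + 0.1), 3550 rose and 827 fell. In CD18Foxp3 Treg 3817 of 12019 rose on that scale, and 2388 fell with upper-quartile normalization. With library size alone, 70.4% of the calls of all genes in CD18wt Treg were rises, against 55.7% after TMM normalization. In CD18Foxp3 Treg these shares were 66.5% and 54.3%. Leaving out 1 library gave 6 to 10 rises and 1 to 3 falls in CD18wt Treg and 9 to 11 rises and 1 to 2 falls in CD18Foxp3 Treg. Of all genes tested in these fits, 1843 to 2182 rose and 1408 to 1673 fell in CD18wt Treg. In CD18Foxp3 Treg 1973 to 2571 rose and 1618 to 2318 fell.

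Between the genotypes, all genes past the threshold in unstimulated Treg numbered 16, but 33 at an adjusted p of 0.05, 86 with DESeq2 or the likelihood ratio test, 134 without a filter, 1, 5 and 2 with limma on log2(TPM + 1), log2(TPM + 0.1) and centred values, 0 with all 12 libraries in 1 fit, and 0 to 44 with 1 library left out (44 without replicate 3 of CD18wt Treg). In stimulated Treg the 0 became 22 with DESeq2, 61 without a filter, 16 with the likelihood ratio test, 1 with limma on log2(TPM + 0.1) or centred values, and 0 to 2 with 1 library left out. For the interaction it became 1 with DESeq2 or limma on any of its 3 scales, 31 without a filter and 6 with the likelihood ratio test. The causes were not tested.

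Directions, too, depended on the scale. After TMM normalization 22 of the 33 ER genes had positive values in CD18wt and 24 in CD18Foxp3 Treg. Of all genes tested, 6109 of 11930 and 6068 of 12019 had positive values. With limma on log2(TPM + 1) the counts of ER genes were 28 and 30, where the median of all genes itself was 0.36 and 0.31. Among those that turned in CD18wt Treg were Pdia3 (0.19 on that scale), Edem1 (0.29) and Herpud1 (0.14), none of which passed. Ern1 in CD18wt Treg was at 0.16 with library size alone. With limma on log2(TPM + 1) and log2(TPM + 0.1) Ern1 was at 0.28 and 0.33, and with 1 library left out between -0.26 and 0.07. Creb3l2 in CD18wt Treg was between -0.00854 and 0.231 with 1 library left out, the lowest without stimulated replicate 2. Sec11c in CD18Foxp3 Treg was at 0.0749 and 0.0759 with limma on either TPM scale.

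Replicate numbers were not taken to pair the libraries. The deposited names carry a further number that the unstimulated and stimulated libraries of 1 replicate number share, which the labels do not explain. Deviations from the group means of same-numbered libraries correlated between -0.0945 and 0.0958 in CD18wt Treg and between -0.132 and 0.0847 across genotypes; in CD18Foxp3 Treg they were 0.0696 to 0.147, with every library correlating best with its own number, a hint from the data only. With the replicate block, 6 ER genes rose and 2 fell in CD18wt Treg, against 2010 and 1578 of all 11930 genes tested. There the calls of Manf, Serp1 and Spcs2 were lost, and Dnajb9 fell beside Sec11c, with -1.53 and adjusted p = 0.000239. In CD18Foxp3 Treg 11 rose and 1 fell, against 2608 and 2291 of all 12019 genes tested. All genes past the threshold numbered 41 between genotypes in unstimulated and 1 in stimulated Treg, and 0 in the interaction.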
